A study of Mus musculus with 14 samples.

Results

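The 10 genes described here carry arachidonic acid from the membrane to the prostaglandin receptors and away again. They are the cytosolic phospholipase A2 gene Pla2g4a, the cyclooxygenase genes Ptgs1 and Ptgs2, the synthase genes Ptges and Ptgis, the receptor genes Ptgir, Ptger2, Ptger4 and Ptgfr, and the catabolic gene Hpgd. They were selected by name, with their values in these data already known, and were found by symbol in both tables. All 10 were present among the 16481 genes listed for pancreatic stellate cells (PSCs) and among the 54532 genes listed for liver. Because the values helped to choose the genes, their levels and fold changes are given as a description, without p-values of single members. Counts of members past a threshold likewise describe the chosen genes and are not evidence.

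Cytosolic phospholipase A2 is a calcium-dependent enzyme that frees arachidonic acid from membrane phospholipids. The cyclooxygenases convert it to prostaglandin H2, which terminal synthases turn into prostaglandin E2, prostacyclin or other products. Prostacyclin and prostaglandin E2 act on receptors coupled to G proteins, and the receptors encoded by Ptgir, Ptger2 and Ptger4 raise cAMP, whereas the product of Ptgfr, the prostaglandin F receptor, signals through calcium. Fibroblasts and stellate cells are known producers of these lipids, and macrophages and endothelial cells in the liver also make and sense them.

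RNA-Seq was available for 6 PSC libraries and 8 livers, all from mouse. Mouse PSCs, the fibroblast-like cells of the exocrine pancreas, had been cultured on Matrigel and treated with 25 μM Yoda1, an agonist of the mechanically gated calcium channel PIEZO1, or with its solvent DMSO. Each of 3 preparations was given both treatments, so the libraries are paired. The Methods state 24 hours of treatment and a supplemental legend states 72 hours. The livers came from mice of 8 to 12 weeks, collected 20 days after 100000 KPCY cells, mouse pancreatic tumor cells with a yellow fluorescent tracer, had been placed in the tail of the pancreas. There were 2 WT mice, which carried floxed Piezo1 alleles (Piezo1 fl/fl) without Cre, 3 TRPV4-KO mice and 3 WT mice gavaged daily with GSK219 at 10 mg/kg, an antagonist of the calcium channel TRPV4. Trpv4 was deleted in all tissues of the host, and not in the tumor cells it received. Whether the untreated WT mice received the carrier by gavage is not stated.

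The 250 bases before the RefSeq start (build GRCm38.p6) are shown for 3 of the genes, all on the plus strand. These are Ptgir (chr7:16906240-16906489), the member with the greatest difference in PSCs, Ptgs2 (chr1:150099781-150100030), the member with the highest level there, and Ptgs1 (chr2:36230176-36230425), the other cyclooxygenase. Capitals mark matches to 5 short motifs, searched on both strands.
Ptgir: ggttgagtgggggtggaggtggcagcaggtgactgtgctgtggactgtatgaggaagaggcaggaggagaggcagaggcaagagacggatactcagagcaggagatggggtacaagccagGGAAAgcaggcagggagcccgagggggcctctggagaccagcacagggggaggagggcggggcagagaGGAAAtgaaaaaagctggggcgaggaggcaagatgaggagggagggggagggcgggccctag
Ptgs2: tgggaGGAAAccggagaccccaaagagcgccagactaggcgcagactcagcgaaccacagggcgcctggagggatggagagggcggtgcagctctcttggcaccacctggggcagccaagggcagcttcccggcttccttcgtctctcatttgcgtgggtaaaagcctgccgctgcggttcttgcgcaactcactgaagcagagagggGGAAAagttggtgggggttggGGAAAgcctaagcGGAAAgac
Ptgs1: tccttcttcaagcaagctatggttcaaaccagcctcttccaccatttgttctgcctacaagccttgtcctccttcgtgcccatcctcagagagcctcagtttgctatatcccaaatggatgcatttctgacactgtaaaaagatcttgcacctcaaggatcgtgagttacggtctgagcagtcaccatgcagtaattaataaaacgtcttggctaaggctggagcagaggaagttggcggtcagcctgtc
The capitals are all GGAAA, the core that NFAT and other factors can bind, with 4 matches before Ptgs2 and 2 before Ptgir. GGAAA is common, since 55.6% of all 32851 promoter windows of this length hold it, and 6 of the 10 windows of these genes did. The AP-1 motif TGANTCA (6.75% of all windows) and the CRE core TGACGT (6.47%) matched none of the 10 windows, TATAAA (12.4%) matched 1 and CCAAT (33.8%) matched 2. The window before Ptgs1 had no match to any of the motifs. A match, or its absence from this window, is a description of letters only. Windows were found for 9 of the 10 genes, and Pla2g4a has 2 of them.

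In the gene models of the liver table (build GRCm38), Pla2g4a (ENSMUSG00000056220, chr1:149829618-149961290, minus strand) and Ptgs2 (ENSMUSG00000032487, chr1:150100031-150108227, plus strand) are neighbors that point away from each other. They are separated by 138740 bases, in which 3 other genes are listed and 0 of them code for protein. The remaining members lie on other chromosomes or far apart on chromosome 2. Ptger4 (chr15:5206661-5244187, minus strand) overlaps the coding gene Ttc33 on the opposite strand, and the strand setting of the counting is not given in the sources used here, so its reads may not be separable from those of Ttc33.

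Between 27312894 and 39070539 reads had been counted per PSC library and between 15567031 and 17395299 per liver. Within each preparation the Yoda1 library was deeper than the DMSO library, although the ranges overlapped (34067476 to 39070539 with Yoda1 and 27312894 to 34741255 with DMSO). The PSC values are already divided by a size factor per library. Defining fibroblast genes were present in PSCs, with Des between 2729 and 4651 normalized counts over the 6 libraries. Gfap and Lrat, markers of quiescent stellate cells, had no row in that table and were not analysed here. Acta2, the smooth muscle actin gene, was at 120680 to 133472 with DMSO and 27293 to 51408 with Yoda1, and the 10 listed stellate cell and fibroblast markers summed to 914308 to 1015230 with DMSO and 452190 to 564564 with Yoda1. Of these 10, 2 had a positive fold change and 2 passed the threshold on the lower side (median log2 fold change -0.65). Markers of other cells were also found in the cultures, since 8 of 8 ductal epithelial markers were listed, with a summed level of 28001 to 41667 with DMSO and 27877 to 53516 with Yoda1, and 4 of the 8 had a positive fold change, with 1 past the threshold on the lower side. Epcam alone reached 5137. Of 12 macrophage markers, 9 were listed, with a summed level of 1372 to 1454 with DMSO and 902 to 1659 with Yoda1, and 1 of the 8 tested had a positive fold change (median log2 fold change -0.48). Endothelial markers (8 of 10 listed) summed to 4530 to 6520 with DMSO and 3991 to 4447 with Yoda1, although 4 of the 7 tested had a positive fold change (median 0.53), with 1 past the threshold in each direction. Pecam1 was at 67.3 to 222 with DMSO and 129 to 176 with Yoda1. Cdh5 was at 52.4 to 255 and 155 to 269, so other genes of that list held most of the sum. The platelet markers (5 of 6 listed) summed to 1112 to 1640 with DMSO and 1425 to 2287 with Yoda1. All 6 mesothelial markers were listed, with a summed level of 7416 to 13637 with DMSO and 9467 to 12763 with Yoda1, and 1 of the 6 had a positive fold change (median log2 fold change -0.95). Msln is on both the ductal and the mesothelial list. Acinar markers (5 of 7 listed) summed to 327 to 1732 with DMSO and 331 to 2907 with Yoda1, and lymphocyte markers (2 of 8 listed) to 67.3 to 84.8 and 29.7 to 38.6, where the 1 marker tested passed the threshold on the lower side. The part of these cells in the values below was not tested, and in bulk RNA fewer cells of a type cannot be told apart from less RNA per cell. Piezo1, the target of Yoda1, was at 14295 to 16698 with DMSO and 13819 to 16019 with Yoda1.

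First, cultured PSCs were compared with and without activation of PIEZO1. All 10 genes were measured above the filter on low values, and 10 of 10 had a positive fitted log2 fold change of Yoda1 over DMSO, as did 7405 of all 15145 genes tested. The median was 0.51 against -0.01 over all genes. Ptgis and Ptgfr took either sign when 1 library was left out (from -0.16 to 0.26 and from -0.19 to 0.26). The prostacyclin receptor gene Ptgir stood out, at 3.36 times the DMSO mean. The enzymes of the early steps, Pla2g4a, Ptgs1 and Ptgs2, were at 1.32, 1.53 and 1.31 times the DMSO mean, and the treatments overlapped for Ptgs2. Ptges, Ptger2 and Hpgd were at 1.67, 1.71 and 2.04 times. Ptger4 was at 1.18 times, and Ptgis (1.02) and Ptgfr (1.06) were close to their DMSO levels. The threshold combined an adjusted p below 0.05 (limma, Benjamini-Hochberg) with a change of more than 1 on the log2 scale. It was passed by 1 member, Ptgir, and by 1.56% of all genes tested (0.74% on the higher side). By adjusted p alone 2 members passed, Ptgir and Ptgs1, compared with 4.75% of all genes. With the preparation as a block 3 members passed by adjusted p, all higher, which added Pla2g4a, and 8.53% of all genes passed on that side. All 3 Yoda1 libraries lay above all 3 DMSO libraries for 6 members, compared with 14.9% of all genes. These counts describe genes that were chosen from the same values.

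**Figure D1:**
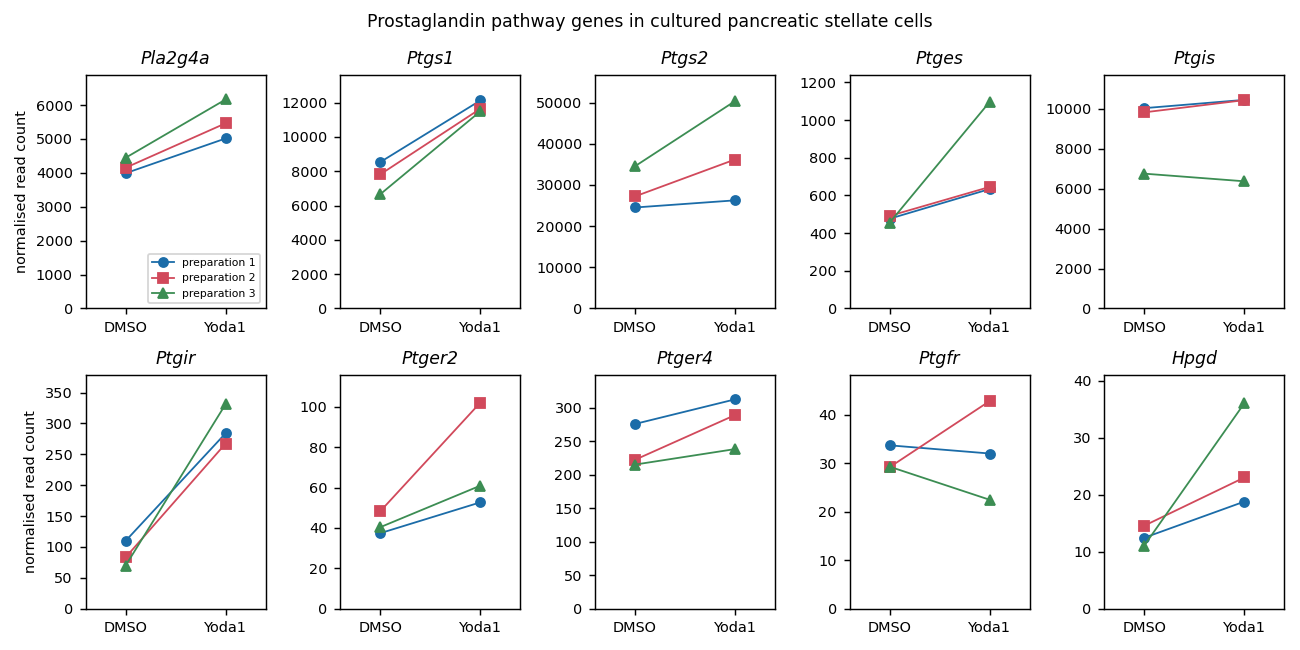
Normalized read count (y axis, from 0) of each of the 10 genes in cultured PSCs with DMSO and with Yoda1 (x axis). Each line joins the 2 libraries of one preparation. Ptgir is higher with Yoda1 in each of the 3 preparations and Ptgis stays level, with preparation 3 lowest in both treatments.

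Pla2g4a encodes the enzyme that releases arachidonic acid. Its normalized counts in preparations 1, 2 and 3 were 3989, 4150 and 4444 with DMSO and 5016, 5463 and 6165 with Yoda1. The treatments did not overlap, and the 3 preparations kept the same order in both. The ratio of Yoda1 to DMSO within a preparation was 1.26, 1.32 and 1.39, for a fitted log2 fold change of 0.40 ± 0.087 (SE, n = 3 per treatment).

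Of the cyclooxygenases, Ptgs1 encodes the isoform usually called constitutive. Ptgs1 was at 8529, 7812 and 6655 normalized counts with DMSO and at 12120, 11638 and 11489 with Yoda1. The preparations spread less with Yoda1 than with DMSO, and the lowest Yoda1 value was above the highest DMSO value. On the log2 scale the fold change was 0.62 ± 0.094 (SE). The inducible isoform is encoded by Ptgs2. Its normalized counts were 24531, 27220 and 34543 with DMSO and 26267, 36192 and 50378 with Yoda1. Within each preparation Ptgs2 was higher with Yoda1 (1.07, 1.33 and 1.46 times), but the preparations differed so much that the treatments overlapped. Its fitted log2 fold change was 0.35 ± 0.24 (SE), and with the preparation as a block in the fit its SE was 0.092 (the estimate is the same).

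Ptges encodes the inducible prostaglandin E synthase. Ptges was at 476, 491 and 455 normalized counts with DMSO and at 634, 645 and 1097 with Yoda1. The treatments did not overlap, and preparation 3 accounted for much of the difference in means, with a ratio of 2.41 against 1.33 and 1.31 in the others. The fit gave Ptges a log2 fold change of 0.69 ± 0.21 (SE). Ptgis, which encodes prostacyclin synthase, had 10030, 9821 and 6751 normalized counts with DMSO and 10445, 10432 and 6368 with Yoda1. Preparation 3 was low under both treatments. The log2 fold change of Ptgis was 0.02 ± 0.24 (SE), with a 95% interval from -0.55 to 0.59, and 0.02 ± 0.052 (SE) with the preparation as a block. Thus the prostacyclin receptor gene and the prostacyclin synthase gene differed in how far they moved with Yoda1, a contrast that was not itself tested.

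Ptgir encodes the prostacyclin receptor. Ptgir had 110, 83.0 and 69.6 normalized counts with DMSO and 284, 268 and 331 with Yoda1. Preparation 3 was the lowest with DMSO and the highest with Yoda1, so that the ratios were 2.57, 3.20 and 4.70. Ptgir had a log2 fold change of 1.76 ± 0.19 (SE), from 69 to 88 reads per DMSO library and 302 to 413 per Yoda1 library. Ptgir did not pass the threshold when DMSO replicate 2 or Yoda1 replicate 2 was left out, although its log2 fold change remained between 1.61 and 1.93 with any 1 library left out.

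The prostaglandin E2 receptor genes had low to moderate levels. Ptger2 was at 37.4, 48.2 and 40.4 normalized counts with DMSO and at 52.7, 102 and 60.9 with Yoda1. The highest DMSO value and the lowest Yoda1 value nearly met, and preparation 2 held the highest value of each treatment. The log2 fold change of Ptger2 was 0.71 ± 0.28 (SE). Ptger4 was at 276, 222 and 215 with DMSO and at 312, 289 and 238 with Yoda1. Its treatments overlapped, although Yoda1 was higher within each preparation, with a log2 fold change of 0.23 ± 0.15 (SE). With the preparation as a block the SE of Ptger4 was 0.095. Ptgfr, the prostaglandin F receptor gene, was at 33.7, 29.2 and 29.3 with DMSO and at 32.0, 42.8 and 22.5 with Yoda1. It was higher with Yoda1 in 1 of the 3 preparations, and its log2 fold change was 0.03 ± 0.27 (SE).

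Hpgd encodes the dehydrogenase that inactivates prostaglandins. It was at 12.5, 14.6 and 11.1 normalized counts with DMSO and at 18.8, 23.0 and 36.1 with Yoda1. The treatments did not overlap, but the values rested on 10 to 13 reads per DMSO library and 20 to 45 per Yoda1 library. Hpgd had a log2 fold change of 0.93 ± 0.30 (SE) and would be larger without the pseudocount of 1, since the scale compresses low genes.

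Levels of different genes were compared per kilobase of gene model. In DMSO libraries Ptgs2 was first (6280 ± 1131 normalized counts per kilobase, SD, n = 3), followed by Ptgis (3454 ± 715), Ptgs1 (1974 ± 243), Pla2g4a (656 ± 36.1) and Ptges (121 ± 4.61). Each of these 5 was separated from the next by more than the spread of the libraries. Next were the receptor genes Ptger4 (35.7 ± 4.98) and Ptgir (26.2 ± 6.12), whose ranges overlapped, then Ptger2 (8.089 ± 1.077) and Hpgd (7.56 ± 1.04), whose ranges also overlapped, and last Ptgfr (4.53 ± 0.379). With Yoda1, Ptgir (88.3 ± 9.91) stood above Ptger4 (42.1 ± 5.70) without overlap, and the ranges of Ptgis (3538 ± 915) and Ptgs1 (3025 ± 85.0) now overlapped. Under both treatments the enzyme genes of synthesis lay above the receptor genes and Hpgd, without overlap.

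**Figure D2:**
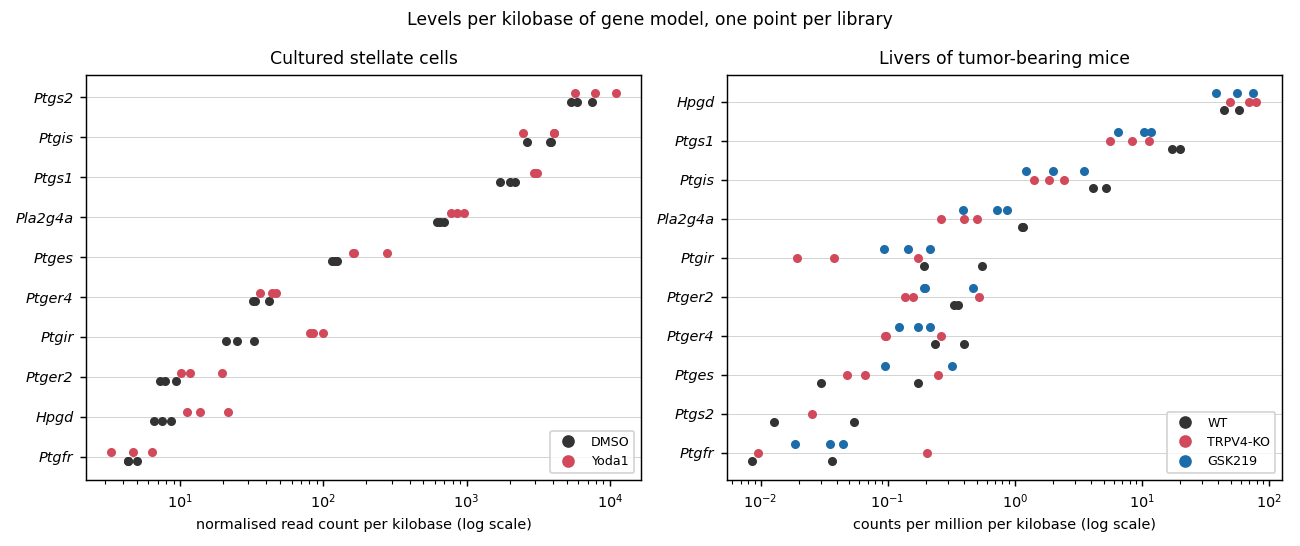
Level per kilobase of gene model (x axis, log scale) of the 10 genes (y axis, ordered by the DMSO or WT mean), with 1 point per library in PSCs (normalized counts, left) and livers (CPM, right). Libraries at 0 are not drawn. Ptgs2 is at the top in PSCs and near the bottom in livers, and Hpgd is at the top in livers and near the bottom in PSCs.

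The other genes of the pathway were taken from a list of 48, of which 31 were tested in PSCs. The list was chosen with results of these data known. Its counts and p-values, in PSCs and in liver, are therefore not independent evidence. The number past the threshold was 0 on the higher side and 1 on the lower side (1.56% of all genes passed in either direction), with a median log2 fold change of 0.08. The gene was Tbxa2r, the thromboxane receptor, which fell from 152, 151 and 132 normalized counts with DMSO to 54.6, 48.6 and 80.2 with Yoda1. Its treatments did not overlap, and the log2 fold change was -1.27 ± 0.21 (SE, limma, adjusted p = 0.0275). The call was lost when any 1 library other than Yoda1 replicate 3 was left out, giving 0 genes called. Without the requirement on fold change, 4 of the 31 passed, 1 higher and 3 lower, and 4.75% of all genes did in either direction. With the preparation as a block, 10 of the 31 passed by adjusted p, 6 higher and 4 lower, compared with 1292 higher and 1388 lower of all 15145 genes. Zadh2, which encodes a prostaglandin reductase, rose (log2 fold change 0.52 ± 0.048, limma adjusted p = 0.00734), whereas Lta4h, the leukotriene A4 hydrolase gene (-0.28 ± 0.047, limma adjusted p = 0.0273), and Pla2g15, a lysosomal phospholipase gene (-0.39 ± 0.072, limma adjusted p = 0.0347), fell together with Tbxa2r.

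All 5 genes of transport and catabolism on the list had positive fold changes. Slco2a1, which encodes the transporter that takes prostaglandins into cells, had 6104, 4486 and 2156 normalized counts with DMSO and 10926, 8691 and 5969 with Yoda1. The preparations differed widely and the treatments overlapped, yet each preparation was higher with Yoda1, by 1.79, 1.94 and 2.77 times. Its log2 fold change was 1.09 ± 0.40 (SE, limma adjusted p = 0.173), and with the preparation as a block it passed the threshold (limma adjusted p = 0.0059). That made 2 calls of 31, with 2.96% of all genes called under the block. Abcc4, an exporter of prostaglandins, was 1.99 times its DMSO mean (log2 fold change 0.95 ± 0.20, limma adjusted p = 0.0502, and 0.00685 with the preparation as a block). By level per kilobase, the leading genes of the list were Ptges3 (2281 normalized counts per kilobase over the 6 libraries), a cytosolic synthase that is also a chaperone partner, Zadh2 (715), Ptgr1 (584), another reductase, Slco2a1 (472) and Abcc4 (434).

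Genes known to respond to cAMP were listed as a further readout, because several of the receptors act through it. This list too was chosen with results of these data known, so its counts and p-values are not independent evidence. Of the 9, all were tested, 2 passed the threshold on the higher side (0.74% of all genes did) and 0 on the lower side, and the median log2 fold change was 0.55. Nr4a1, an early-response nuclear receptor gene, was at 302, 270 and 255 normalized counts with DMSO and at 649, 1029.5 and 681 with Yoda1, without overlap (log2 fold change 1.48 ± 0.19, limma adjusted p = 0.0136). Nr4a3 of the same family was at 71.1, 65.1 and 51.5 with DMSO and at 130, 170 and 113 with Yoda1, also without overlap (1.12 ± 0.21, limma adjusted p = 0.0352). The call of Nr4a1 was lost without DMSO replicate 2, and that of Nr4a3 without any 1 library other than Yoda1 replicate 3. Crem, which encodes a repressor induced by cAMP, rose by less (0.55 ± 0.089, limma adjusted p = 0.0259). Areg, the amphiregulin gene, passed the threshold with the preparation as a block (1.03 ± 0.24, limma adjusted p = 0.0364) and did not without it (limma adjusted p = 0.146). By adjusted p alone 3 of the 9 passed without the block (4.75% of all genes in either direction) and 7 with it (8.53% of all genes on the higher side), all higher. These genes also respond to calcium and other signals, and which signal moved them was not tested.

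Over the 6 PSC libraries, the members that varied most were Ptgir (SD of log2 values 0.99), Hpgd (0.60) and Ptger2 (0.51). The genes most like Ptgir, by the root mean square difference of centered log2 values, were Mmd (0.11), Oasl1 (0.15) and Tnxb (0.16). Those most like Hpgd were Prdx1 (0.062), Gpnmb (0.082) and Ldhd (0.11), and those most like Ptger2 were Gm13991 (0.17), AC130841.1 (0.17) and AC163637.1 (0.18). With 6 libraries in 2 treatments, many genes can lie this close.

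Next, the livers of tumor-bearing mice were compared, first WT with TRPV4-KO. Trpv4 itself had 43 and 53 reads in WT livers, 15, 5 and 23 in TRPV4-KO livers and 20, 30 and 36 in livers from mice given GSK219. The reads were fewer in the KO livers than in WT but present, and since the deleted part of the gene cannot be seen in a count per gene, they do not check the allele. Of the 10 members, 8 had enough reads to be tested and 2, Ptgs2 and Ptgfr, did not. Pla2g4a, Ptgs1, Ptgis and Ptgir were higher in both WT livers than in all 3 KO livers, at 2.98, 2.20, 2.45 and 4.86 times the KO mean. At the adjusted threshold, 0 of the 8 passed (edgeR, Benjamini-Hochberg), compared with 0.265% of all 15118 genes tested, 4 passed at an unadjusted p under 0.05 (all 4 higher in WT, as were 1436 of all 15118 genes, with 1150 lower) and 3 passed with DESeq2, which called 3.23% of the genes it tested. WT livers lay above all KO livers for 4 members, and for 17.7% of all genes. Counts of members in the livers, here and below, also describe genes chosen with their values known, and are not evidence.

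**Figure D3:**
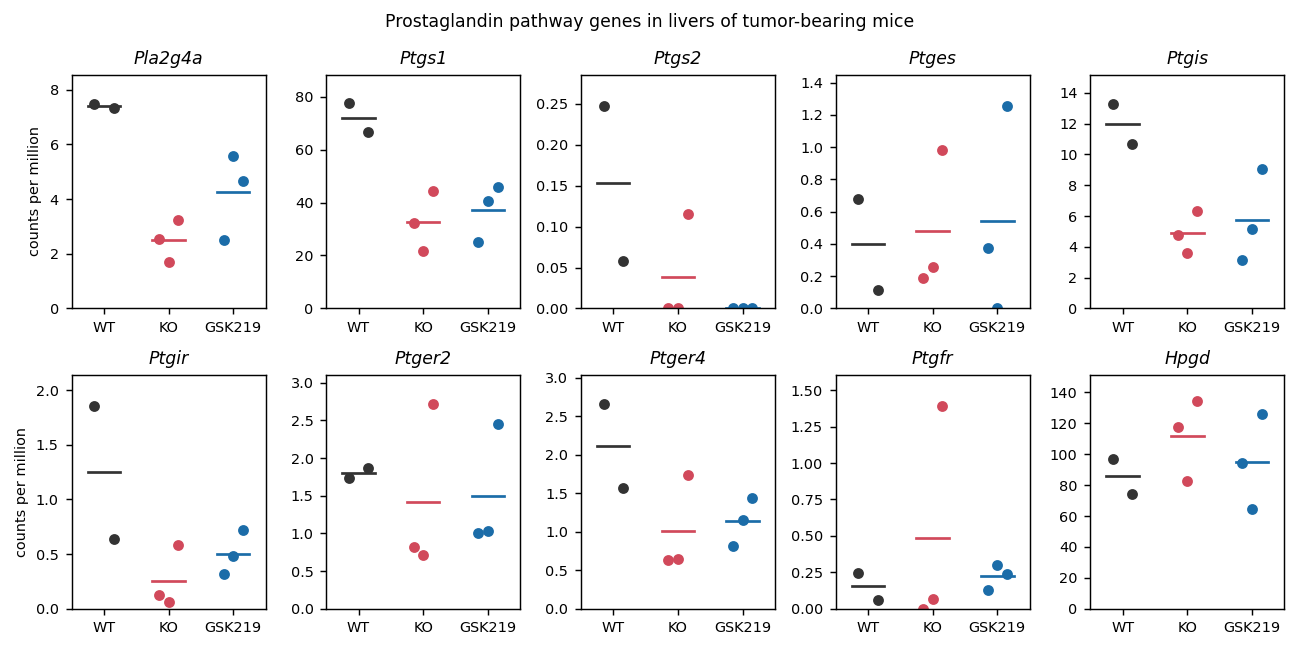
Normalized CPM (y axis, from 0) of the 10 genes in livers of WT, TRPV4-KO and GSK219-treated mice (x axis), with 1 point per liver and a bar at the group mean. Both WT livers lie above all others for Pla2g4a, Ptgs1 and Ptgis, and Ptgs2 is at or near 0 in every liver.

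Pla2g4a was at 7.48 and 7.34 CPM (reads relative to the effective library size) in WT livers, at 2.53, 1.68 and 3.24 in TRPV4-KO livers and at 2.52, 5.56 and 4.66 with GSK219. The WT livers were nearly equal and above every other liver. The log2 fold change of WT over KO was 1.57 ± 0.37 (SE), and that of WT over GSK219 was 0.80 ± 0.37. Both comparisons use the same 2 WT livers, so they are not independent.

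Ptgs1 was the more abundant cyclooxygenase gene in liver. It was at 77.5 and 66.5 CPM in WT livers, at 32.2, 21.6 and 44.5 in TRPV4-KO livers and at 25.05, 40.7 and 46.0 with GSK219. The highest liver of either other group stayed well below both WT livers. For Ptgs1 the log2 fold change was 1.13 ± 0.32 (SE) against KO and 0.95 ± 0.32 against GSK219. Ptgs2, in contrast, had 4 and 1 reads in WT livers, 0, 0 and 2 in KO livers and 0, 0 and 0 with GSK219. A count of 0 allows up to 3 reads, so no difference in Ptgs2 was detectable at this depth.

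The terminal synthase genes behaved differently from each other. Ptgis was at 13.3 and 10.7 CPM in WT livers, at 4.74, 3.63 and 6.31 in KO livers and at 3.15, 5.13 and 9.03 with GSK219. No other liver reached the lower WT value, and GSK219 replicate 3 came closest. For Ptgis the log2 fold change was 1.29 ± 0.41 (SE) against KO and 1.05 ± 0.41 against GSK219. Ptges, with 2 to 11 reads in WT livers, 3 to 17 in KO livers and 0 to 21 with GSK219, had overlapping groups. Its log2 fold change against KO was -0.29 ± 1.30 (SE) and took either sign when 1 liver was left out, from -1.97 to 0.80.

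Among the receptors, Ptgir was at 1.86 and 0.641 CPM in WT livers, at 0.126, 0.0648 and 0.579 in KO livers and at 0.315, 0.483 and 0.717 with GSK219. The WT and KO livers barely separated, on 30 and 11 reads against 2, 1 and 10, and the WT and GSK219 livers overlapped. Against KO its log2 fold change was 2.21 ± 0.81 (SE), between 1.28 and 3.60 when 1 liver was left out, and against GSK219 it was 1.28 ± 0.76, between 0.33 (without WT replicate 1) and 1.85 (without WT replicate 2). Ptger4 was at 2.66 and 1.57 CPM in WT livers, at 0.632, 0.648 and 1.74 in KO livers and at 0.818, 1.15 and 1.43 with GSK219. WT livers lay above those given GSK219 but overlapped the KO livers. Ptger2 was at 1.73 and 1.86 CPM in WT livers, at 0.822, 0.713 and 2.72 in KO livers and at 1.01, 1.03 and 2.45 with GSK219. In both other groups replicate 3 was above WT and the others below it. Ptgfr had 4 and 1 reads in WT livers, 0, 1 and 24 in KO livers and 2, 5 and 4 with GSK219, so that 1 KO liver held most of its reads.

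Hpgd was the most abundant of the 10 genes per kilobase in liver, at 51.0 ± 9.49 CPM per kilobase in WT (SD, n = 2), 66.3 ± 15.7 in KO (n = 3) and 56.4 ± 18.4 with GSK219 (n = 3). Its groups overlapped, at 97.1 and 74.5 CPM in WT livers, 118, 82.6 and 134 in KO livers and 94.1, 64.4 and 126 with GSK219. The log2 fold change of WT over KO was -0.38 ± 0.30 (SE), with a 95% interval from -1.07 to 0.31. In all 3 groups the order per kilobase was Hpgd, Ptgs1, Ptgis and Pla2g4a, without overlap of the ranges among these 4. In WT livers these were at 51.0, 18.5, 4.67 and 1.16 CPM per kilobase, and the ranges of Ptgir (0.374), Ptger2 (0.346) and Ptger4 (0.318) overlapped. Stellate cells and liver values are on separate scales, so only the order of genes within each can be compared.

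Each group held 1 liver with Xist reads, and the rest had reads from the Y chromosome. Within the livers with Xist reads, Ptgs1 was at 77.5 CPM in WT, 44.5 in KO and 46.0 with GSK219, and within the others it was at 66.5, 26.9 and 32.9. Pla2g4a was at 7.48, 3.24 and 4.66 in the first set and at 7.34, 2.11 and 4.04 in the second. Ptgis was at 13.3, 6.31 and 9.03 in the first and at 10.7, 4.19 and 4.14 in the second. Most of these values are single livers, and since both WT livers lay above all others for these 3 genes, the split could not change their order. Ptger2, by contrast, was lower in WT than in KO among livers with Xist reads (1.73 and 2.72 CPM) and higher among the others (1.86 and 0.767).

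The second liver question was how antagonism of TRPV4 compared with its loss. Against GSK219, 0 of the 8 members passed the adjusted threshold (edgeR), as did 0% of all genes tested, with 2 members at an unadjusted p under 0.05 and 0 with DESeq2. Over all genes, 888 were higher and 354 lower at that unadjusted p, and DESeq2 called 0.472% of the genes it tested. WT livers lay above all GSK219 livers for 4 members (Pla2g4a, Ptgs1, Ptgis and Ptger4), and for 15.6% of all genes. Between TRPV4-KO and GSK219, 0 of 8 members passed (edgeR), with 0 at an unadjusted p under 0.05 (526 higher and 399 lower over all genes) and 0 with DESeq2 (0.54% of the genes it tested), compared with 0.0992% of all genes by edgeR. No member separated these groups, whereas 5.85% of all genes were higher in every KO liver and 4.35% lower, and the median log2 fold change was -0.18. Pla2g4a had a log2 fold change of -0.77 ± 0.35 (SE), with a 95% interval from -1.56 to 0.02. For Ptgs1 the interval ran from -0.85 to 0.49 and for Ptgis from -1.10 to 0.63. These intervals do not show that loss and antagonism act alike.

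**Figure D4:**
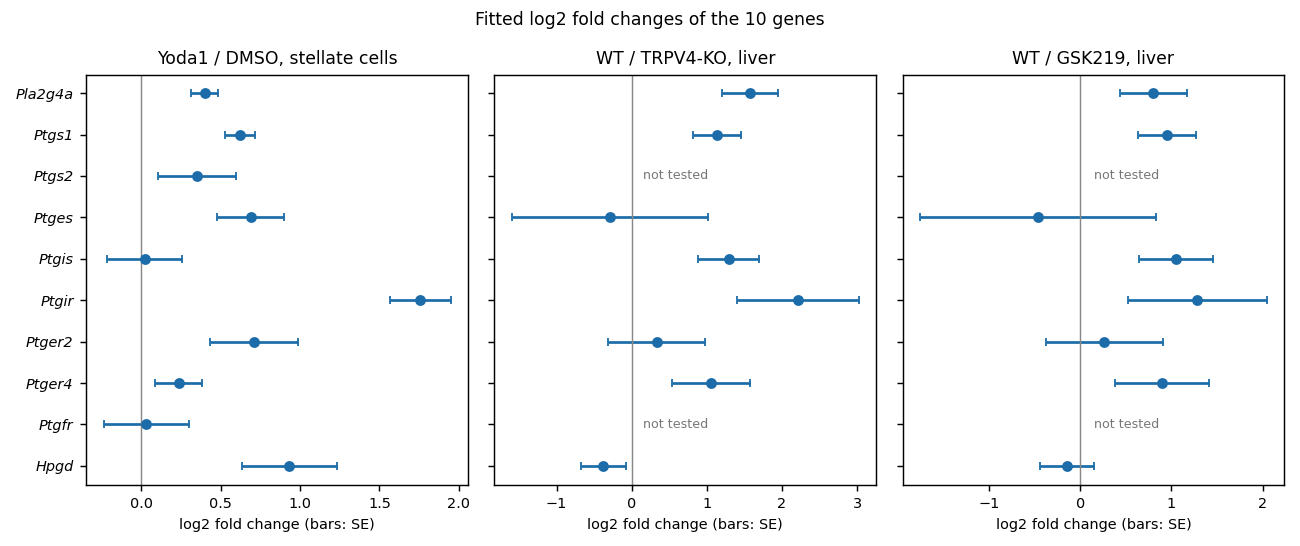
Fitted log2 fold change (x axis, with standard error bars) of the 10 genes (y axis) in 3 comparisons, Yoda1 over DMSO in PSCs (limma, without the preparation as a block), and WT over TRPV4-KO and WT over GSK219 in liver (edgeR). The x axes differ between panels, and genes with too few reads are marked as not tested. Ptgir is at 1.76, 2.21 and 1.28, and without WT replicate 1 its liver values were 1.28 and 0.33, below Pla2g4a at 1.57 and 0.78.

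Of the 48 other pathway genes, 31 were tested in liver. In WT against TRPV4-KO, 0 passed the threshold (edgeR), and 7 were higher and 2 lower at an unadjusted p under 0.05 (1436 and 1150 of all 15118 genes). With DESeq2, which called 3.23% of the genes it tested, 1 of the 31 passed, namely Tbxas1. Tbxas1, the thromboxane synthase gene, was at 17.3 and 12.5 CPM in WT livers, at 3.67, 4.73 and 8.80 in KO livers and at 3.84, 7.19 and 8.07 with GSK219. WT livers lay above all others (log2 fold change against KO 1.38 ± 0.41, edgeR adjusted p = 0.173). The smallest p-values belonged to Ptgr2, a reductase gene, at -0.51 ± 0.13 (edgeR adjusted p = 0.14), Pla2g12b, a secreted phospholipase-related gene of the liver, at 0.48 ± 0.13 (edgeR adjusted p = 0.149), and Zadh2 at -0.41 ± 0.11 (edgeR adjusted p = 0.152). Pla2g12b was at 53.5 and 48.7 CPM in WT livers, at 33.0, 35.0 and 41.9 in KO livers and at 50.1, 54.2 and 51.3 with GSK219, so that the KO livers were the lowest.

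In WT against GSK219, 0 of the 31 passed (edgeR), with 7 higher and 2 lower at an unadjusted p under 0.05 (888 and 354 of all 15118 genes) and 0 with DESeq2. Cysltr1, a leukotriene receptor gene, had the smallest p (log2 fold change 1.32 ± 0.37, edgeR adjusted p = 0.505), followed by Pla2g15 (0.66 ± 0.19, edgeR adjusted p = 0.527) and Tbxas1 (1.23 ± 0.41, edgeR adjusted p = 0.539). In TRPV4-KO against GSK219, 0 passed (edgeR), with 0 higher and 1 lower at an unadjusted p under 0.05 (526 and 399 of all 15118 genes), and Pla2g12b had the smallest p (-0.50 ± 0.12, edgeR adjusted p = 0.354). By level per kilobase, the leading genes of the list in liver were Pla2g12b (39.4 CPM per kilobase over the groups), Zadh2 (26.9), Ptges3 (24.3), Cbr1 (22.7), a carbonyl reductase gene, and Pla2g15 (11.7). Of the 9 genes that respond to cAMP, 7 were tested in liver, and 1, the clock gene Per1, passed the threshold in WT against KO, compared with 0.265% of all genes. It was lower in WT than in KO, at 25.4 and 33.3 CPM against 98.3, 71.4 and 76.1, with 35.6, 48.1 and 47.8 with GSK219 (log2 fold change -1.48 ± 0.21, edgeR adjusted p = 0.039). Of the 5 WT and KO livers, leaving out any 1 other than TRPV4-KO replicate 3 ended this call, and the GSK219 livers were not left out here. Nr4a1 had a log2 fold change of 1.28 ± 0.53 in WT over KO (edgeR adjusted p = 0.274). It passed with the replicate number as a block (edgeR adjusted p = 0.0366, with 2.84% of all genes called). It also passed without TRPV4-KO replicate 3 (edgeR adjusted p = 0.0277, with 4.83% of all genes called). WT had no replicate 3, so the block too takes that KO liver largely out of WT against KO. The 2 settings are therefore not independent. Pde4b, a cAMP phosphodiesterase gene, was at 0.77 ± 0.48 (edgeR adjusted p = 0.46), and without TRPV4-KO replicate 3 it passed at 1.51 (edgeR adjusted p = 0.0187).

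The summed markers of several cell types differed between the groups of livers without overlap, although few single markers passed the threshold. In WT against KO, 0 of 12 macrophage, 0 of 12 stellate cell, 0 of 4 tested platelet and 0 of 6 tested ductal markers passed (edgeR), and in WT against GSK219 no marker of any list passed. The summed level of 12 macrophage and Kupffer cell markers was 1963 to 2243 CPM in WT, 543 to 1187 in KO and 570 to 1347 with GSK219, and 12 of 12 were higher in WT than in KO by fitted fold change, with a median log2 fold change of 1.34. The 12 neutrophil markers summed to 83.6 to 98.0 CPM in WT, 6.80 to 17.9 in KO and 6.23 to 16.5 with GSK219, and 3 of the 11 tested passed the threshold in WT against KO. The 12 stellate cell and fibroblast markers summed to 423 to 638, 156 to 350 and 202 to 321 CPM, and the 6 platelet markers, of which Gp1bb was at 0 in all livers, to 24.2 to 31.4, 8.62 to 21.4 and 9.88 to 22.2. The 8 ductal and tumor epithelial markers summed to 22.02 to 25.9 CPM in WT, 12.6 to 14.4 in KO and 13.1 to 17.3 with GSK219, although 3 of the 6 tested had a positive fold change of WT over KO (median log2 fold change 0.13). Endothelial markers overlapped between groups (601 to 697, 401 to 623 and 465 to 654 CPM), and hepatocyte markers summed to less in WT (50412 to 61518, 72544 to 92631 and 70821 to 80748). Their part in the values of Pla2g4a, Ptgs1, Ptgis and Ptgir was not tested.

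**Figure D5:**
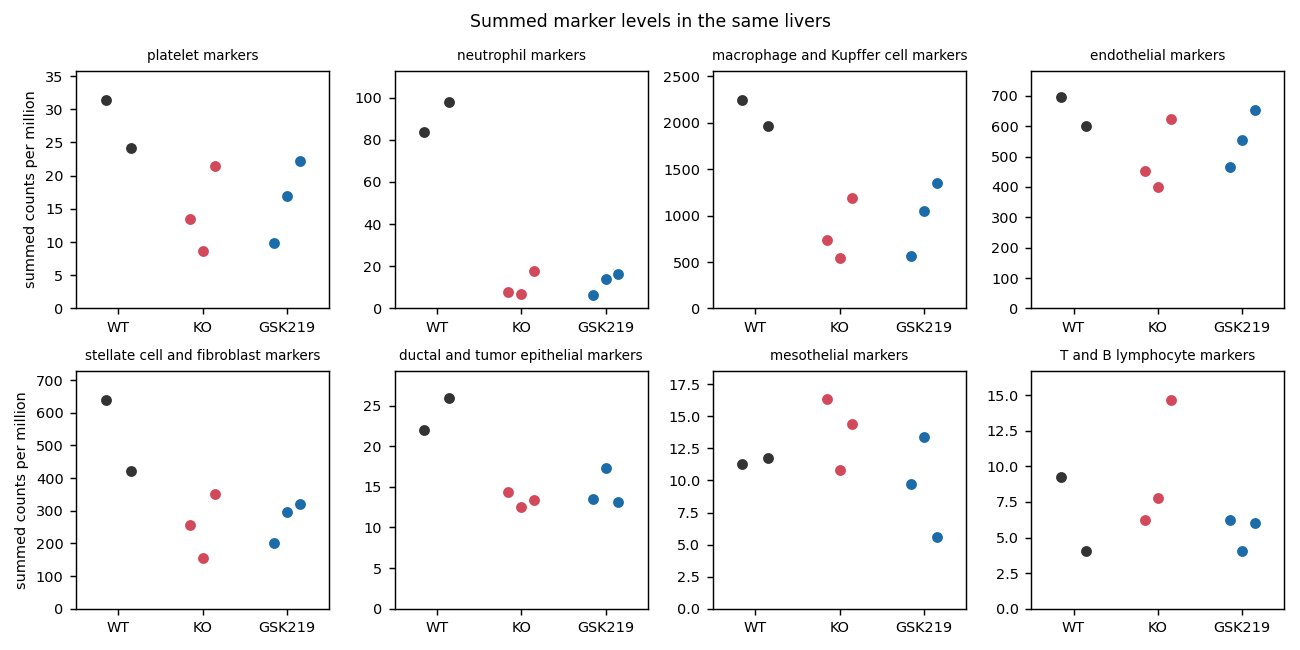
Summed level of the markers of 8 cell types (y axis, CPM, from 0) in the 3 groups of livers (x axis), with 1 point per liver. For neutrophil, macrophage, platelet, stellate cell, and ductal and tumor epithelial markers both WT livers lie above the other 6, and TRPV4-KO replicate 3 is the highest of its group for the first 4 of these.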

How the data were processed

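The 10 members and all gene lists were chosen with earlier results of these data known. For livers, the authors deposited read counts per gene. The PSC table deposited by the authors holds a signal for each gene, which the values show to be counts divided by 1 size factor per library (reads recovered for 100% of 98886 values, within 0.01). The authors also deposited their own log2 fold changes, standard errors, a test score and p-values, which were not used. Per the labels' processing notes, HISAT2 2.0.5 and Trim Galore were used. The counting tool is not given in the sources used here. Another 7 count columns could not be tied to a described sample and were left out.

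PSC values were tested with limma 3.58.1 on log2(value + 1), keeping genes that reached 10 in 3 or more libraries, and liver counts with edgeR 4.0.16 (TMM, minimum count 10, quasi-likelihood fit of all 8 livers), in R 4.3.3. A p-value measures the spread between these libraries. Same-numbered PSC libraries share a preparation by label, and their deviations correlated (0.43, 0.26 and 0.53). Fitted 95% intervals use the t distribution with the degrees of freedom of each fit. Named genes were the 10 members, the list genes past the threshold, the 3 with the smallest p per comparison, and the 5 with the highest level per kilobase. Areg, Pla2g15 in PSCs, and Tbxas1 against KO were named outside this rule, after their values were seen. These intervals rest on the spread between libraries, whereas the limit of 3 reads for a count of 0 covers counting error only. Alternatives were DESeq2 1.42.0, other pseudocounts, no filter, other size factors, a replicate block, a sex term set by Xist reads, fewer groups and each library left out. The steps were tested on simulated data.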

Additional observations from a re-analysis of the deposited data

How the results depend on the processing

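In PSCs the number of members past the threshold was 1. It ranged from 0 to 1 when 1 library was left out, with 0 without DMSO replicate 2 or Yoda1 replicate 2 (when 0.207% and 0.173% of all genes were called), and was 2 with no fold-change threshold. The number of other pathway genes was 1. It was 2 with the replicate block (pairing by preparation), 2 with DESeq2 on the recovered reads, 2 with edgeR and the block (chosen after seeing the data), 4 with no fold-change threshold and 0 to 1 when 1 library was left out. Over all genes, the block moved the PSC calls from 112 higher and 124 lower to 250 and 199, and it changed no member call in PSCs.

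In WT against TRPV4-KO livers, the number of members was 0, but 3 with DESeq2 (Pla2g4a, Ptgs1 and Ptgis), 1 with no filter on low counts (Pla2g4a), 2 with the replicate block (Ptgs1 and Ptgis) and 0 to 3 when 1 liver was left out, with 3 (Pla2g4a, Ptgs1 and Ptgir) without TRPV4-KO replicate 3. The number of other pathway genes was 0, but 1 with DESeq2, 1 with the replicate block, 1 with a sex term and 0 to 2 when 1 liver was left out, with 2 without TRPV4-KO replicate 3. Over all genes, 23 higher and 17 lower became 363 and 119 with DESeq2, 351 and 78 with the block, 252 and 73 with the sex term and 573 and 149 without TRPV4-KO replicate 3. TRPV4-KO replicate 3 was the KO liver with Xist reads. WT had no replicate 3, so the block too takes that liver largely out of WT against KO. The cause was not tested. Against GSK219 the counts of members and other pathway genes stayed at 0 under every alternative run, while calls over all genes went from 0 higher and 0 lower to 63 and 10 (WT) and from 8 and 7 to 44 and 48 (TRPV4-KO) with DESeq2. Liver numbers share only a number (mean correlation 0.14 over 7 pairs, from -0.52 to 0.59). Among the livers with Xist reads, WT replicate 1 correlated with TRPV4-KO replicate 3 (0.65) and with GSK219 replicate 3 (0.60). The latter 2 correlated at 0.59.

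In liver Ptgs2 and Ptgfr had too few reads to be tested, and Ptges (0 to 21 reads per liver) and Ptgir (1 to 30) rest on few.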
